A study of Mus musculus with 12 samples.

Results

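Melanocyte and pigment synthesis genes were followed through mouse back skin with and without imiquimod-induced psoriasis-like lesions. The 10 genes, Tyr, Tyrp1, Dct, Pmel, Mlana, Slc45a2, Oca2, Mitf, Mc1r and Kit, were taken by symbol from the 18505 gene rows of the RNA-seq table, and each symbol matched 1 row. Bulk back skin of male wild-type BALB/c mice a few weeks old was measured on day 10 in 12 samples, 4 per group, after the back had been shaved and treated once a day. The control group received petroleum jelly. The IMQ + NS group received imiquimod (IMQ) cream, an agonist of Toll-like receptor 7 that induces psoriasis-like lesions, followed by saline under gauze and film. The IMQ + BZLF group received the same cream followed by Banzhilian formula (BZLF), a herbal preparation for external use, under the same cover. The control mice thus differed from the IMQ + NS mice in the cream and in the saline and cover, which cannot be told apart here. Which of the BZLF doses the sequenced samples received is not given in the sources used here.

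Melanocytes are the cells that make melanin, and in mouse back skin most of them sit in the bulbs of growing hair follicles. Mitf is the transcription factor at the head of their program, Kit and Mc1r are their surface receptors, Tyr, Tyrp1 and Dct are the melanin enzymes, and Pmel, Mlana, Slc45a2 and Oca2 are proteins of the melanosome, the organelle in which melanin is made. BALB/c mice are albino through a loss-of-function allele of Tyr and carry the brown allele of Tyrp1, in all 3 groups alike. Their melanocytes are present without melanin, so the values are transcript levels and no measure of pigment.

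Values are FPKM, fragments normalised for transcript length and for the mapped fragments of the sample, a scale on which genes of unequal length can be compared. The FPKM of a sample added up to between 444660 and 506622. Read counts were not used here, so the depth behind single values is unknown and the precision is that given by the 4 replicates. The labels number the samples of a group without saying more about their origin, and the p-values measure the spread between these samples. Control replicate 2 stood apart from the other 3 controls in most of the pigment genes, and each comparison with the control group is therefore given with and without it. It was set apart on the values of these same genes, so results without it describe the samples and are no separate support.

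The promoters of the pigment genes are shown first. MITF is known to bind an E-box with the letters CATGTG in promoters of melanocyte genes. Its part in the levels of the pigment genes was not tested. In RefSeq windows of 250 bases before the start (GRCm38.p6), 7 of the 10 genes had at least 1 window, and Pmel, Mlana and Slc45a2 had none. CATGTG was found on either strand in 5 of these 7 genes, against 13.8% of the 27025 genes with a window and 12.3% of the 32851 windows. The letters start 21 bases before the RefSeq start of Tyr, 46 before that of Tyrp1 and 186 before that of Oca2. They start 232 and 150 bases before the RefSeq start of Dct and 62 and 51 before that of Mc1r. The GENCODE M21 locus of Tyrp1 begins at 80834123, so by that annotation the Tyrp1 match lies inside the gene. Windows with 2 or more matches, as for Dct and Mc1r, made up 1.62% of all windows. Neither Mitf, with 3 windows, nor Kit held the letters. A match describes the letters only and is not a measured binding site. Each window or part of one is given 5′ to 3′ on the strand of its gene, with CATGTG or its complement CACATG in capitals, whole for Tyr (chr7:87493513-87493762, minus strand) and Dct (chr14:118052247-118052496, minus strand), and as the 30 bases around the match for Tyrp1 (chr4:80834155-80834184), Oca2 (chr7:56239561-56239590) and Mc1r (chr8:123407014-123407043), all on the plus strand.
Tyr: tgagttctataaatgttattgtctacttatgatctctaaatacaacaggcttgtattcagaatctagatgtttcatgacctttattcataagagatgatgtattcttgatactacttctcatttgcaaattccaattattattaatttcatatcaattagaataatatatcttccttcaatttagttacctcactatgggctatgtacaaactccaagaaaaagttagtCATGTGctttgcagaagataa
Dct: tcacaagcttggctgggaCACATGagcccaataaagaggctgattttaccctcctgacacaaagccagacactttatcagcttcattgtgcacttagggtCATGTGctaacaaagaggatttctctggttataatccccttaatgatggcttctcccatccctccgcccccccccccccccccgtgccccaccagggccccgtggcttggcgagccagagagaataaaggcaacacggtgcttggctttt
Tyrp1: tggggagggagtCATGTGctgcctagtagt
Oca2: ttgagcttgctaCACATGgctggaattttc
Mc1r: ccctggCACATGcccatCATGTGgccaccc

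The melanin enzymes were low in 3 of the 4 control samples and high in every lesion sample. Dct, dopachrome tautomerase, read 14.6, 107, 7.83 and 9.11 FPKM in control replicates 1 to 4, 115, 88.7, 87.0 and 155 FPKM in the IMQ + NS group and 229.7, 115, 101 and 105 FPKM in the IMQ + BZLF group. Tyrp1 read 5.63, 58.3, 1.47 and 1.89 FPKM in the controls, 64.7, 49.8, 42.2 and 88.6 FPKM in the IMQ + NS group and 128, 61.8, 55.5 and 60.6 FPKM in the IMQ + BZLF group. Tyr, tyrosinase, which starts melanin synthesis, read 0.570, 7.15, 0.0510 and 0.202 FPKM in the controls, 8.39, 7.94, 6.35 and 11.9 FPKM in the IMQ + NS group and 16.8, 8.59, 10.1 and 8.49 FPKM in the IMQ + BZLF group. In all 3 enzymes control replicate 2 was the highest control and lay at the level of the lesions, while the other 3 controls lay below every lesion sample.

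Among the melanosome proteins, Pmel, Slc45a2 and Oca2 were also low in 3 of the 4 controls, whereas Mlana was not. Pmel, which forms the fibrils on which melanin is laid down, read 4.73, 40.4, 1.78 and 2.58 FPKM in the controls, 44.5, 33.4, 30.6 and 66.4 FPKM in the IMQ + NS group and 96.4, 42.0, 42.4 and 42.5 FPKM in the IMQ + BZLF group. Slc45a2, a melanosomal transporter, read 0.310, 5.38, 0.137 and 0.0345 FPKM in the controls, 7.66, 6.15, 3.40 and 7.42 FPKM in the IMQ + NS group and 9.90, 5.94, 7.98 and 6.84 FPKM in the IMQ + BZLF group. Oca2, an anion channel of the melanosome, read 0.129, 3.02, 0.00775 and 0.00781 FPKM in the controls, 7.38, 4.45, 5.21 and 9.42 FPKM in the IMQ + NS group and 14.1, 6.62, 5.65 and 6.45 FPKM in the IMQ + BZLF group. Control replicates 3 and 4 held almost no Oca2, and even control replicate 2 was below every lesion sample for this gene. Mlana, a small protein needed for the maturation of Pmel, read 17.2, 40.0, 42.6 and 49.8 FPKM in the controls, 47.6, 47.2, 32.9 and 62.8 FPKM in the IMQ + NS group and 91.6, 48.9, 63.5 and 51.2 FPKM in the IMQ + BZLF group. The Mlana values of controls and lesions overlapped, and its lowest value was in control replicate 1.

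The receptors Mc1r and Kit and the factor Mitf differed in how far the groups lay apart. Mc1r, the melanocortin receptor that switches pigment type, read 0.369, 4.37, 0.188 and 0.190 FPKM in the controls, 5.17, 6.02, 3.09 and 6.08 FPKM in the IMQ + NS group and 7.14, 4.35, 6.77 and 5.73 FPKM in the IMQ + BZLF group. Kit, the receptor for stem cell factor, read 3.16, 5.27, 2.80 and 2.51 FPKM in the controls, 6.35, 6.89, 5.31 and 7.07 FPKM in the IMQ + NS group and 7.69, 5.25, 6.52 and 6.35 FPKM in the IMQ + BZLF group. Mitf read 2.40, 3.69, 3.66 and 3.52 FPKM in the controls, 5.10, 4.71, 4.02 and 4.93 FPKM in the IMQ + NS group and 7.42, 6.50, 5.54 and 5.30 FPKM in the IMQ + BZLF group. Mc1r followed the enzymes, with the high value in control replicate 2. Kit and Mitf were present at several FPKM in all controls, and the 3 groups of Mitf did not overlap at all.

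**Figure D1:**
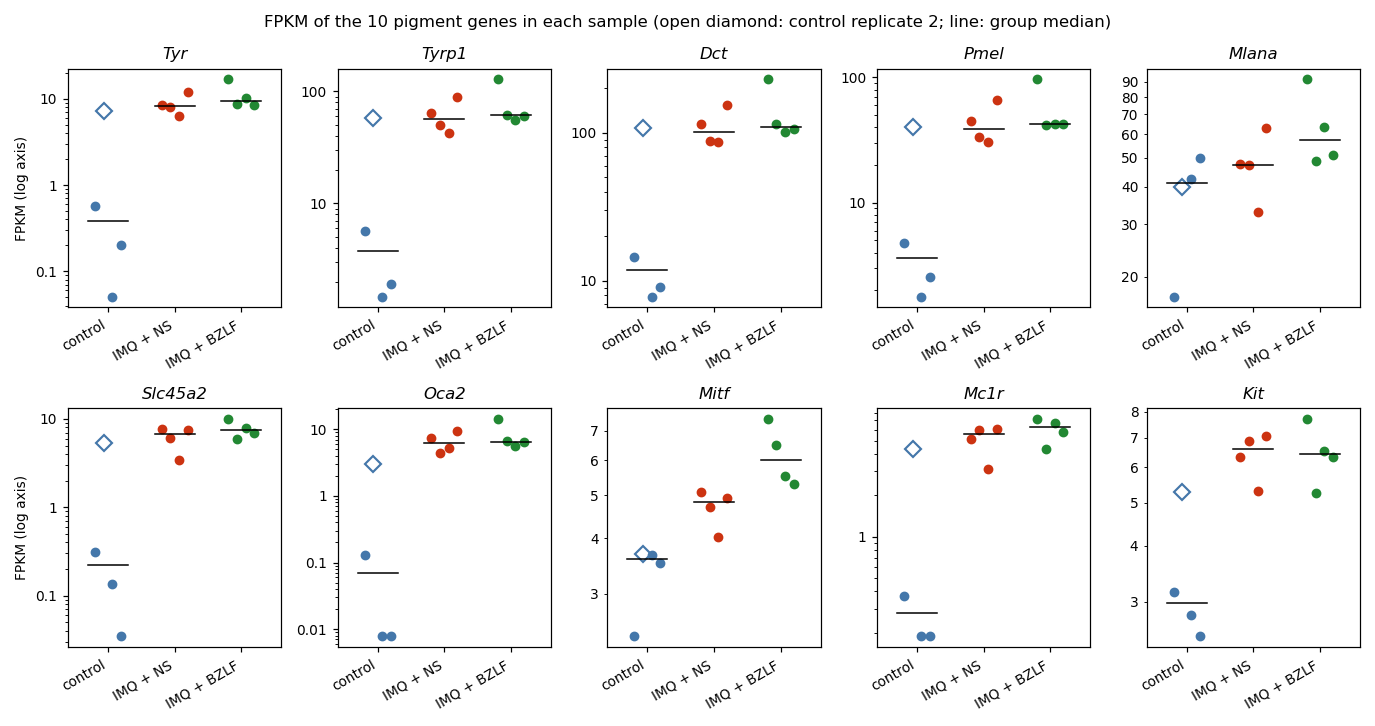
FPKM of each pigment gene in the 12 samples on a log axis, with 1 point per sample, an open diamond for control replicate 2 and a line at the group median. In Tyr, Tyrp1, Dct, Pmel, Slc45a2, Oca2 and Mc1r the other 3 controls lie far below the lesions, whereas in Mlana the groups overlap.

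Set side by side on the FPKM scale, Dct had the highest median over the 8 lesion samples, at 110.2 FPKM, followed by Tyrp1 at 61.2, Mlana at 50.0 and Pmel at 42.4 FPKM. Tyr had a median of 8.54, Slc45a2 of 7.13, Oca2 of 6.54, Kit of 6.43, Mc1r of 5.87 and Mitf of 5.20 FPKM. The ranges of Dct, Tyrp1, Mlana and Pmel overlapped from each to the next, as did those of the lower 6 genes. Between Pmel, with a lowest lesion value of 30.6 FPKM, and Tyr, with a highest of 16.8 FPKM, they did not. In control replicates 1, 3 and 4 the order was different, with Mlana the highest of the 10 genes.

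Whether psoriasis-like lesions differed from normal skin was asked first. In the IMQ + NS group 7 of the 10 genes rose against the control group by limma at an adjusted p under 0.05 with a log2 fold change above 1, and 0 fell. Over all 15288 genes tested, 11.4% were called higher and 11.0% lower by this rule. The genes that rose were Tyr, Tyrp1, Dct, Pmel, Slc45a2, Oca2 and Mc1r. The median log2 fold change of the 10 genes was 2.93, beside 0.0535 over all tested genes. In bulk skin more cells of a type and more RNA per cell cannot be told apart.

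Oca2 had the largest rise of the 10 genes, with a log2 fold change of 4.42 (SE 0.98, adjusted p = 0.00509 by limma). Tyr rose by 3.64 (SE 1.03, adjusted p = 0.0154 by limma), Slc45a2 by 3.53 (SE 1.01, adjusted p = 0.0165 by limma) and Tyrp1 by 3.37 (SE 1.01, adjusted p = 0.0200 by limma). These log2 fold changes are of FPKM + 0.1, and the added constant makes the change smaller for genes as low as Oca2 was in the controls. The log2 fold changes of Mc1r, Pmel and Dct were 2.96, 2.90 and 2.56, with adjusted p-values of 0.0137, 0.0184 and 0.0174 by limma. The calls of Tyrp1 and Pmel were narrow. Tyrp1 had an adjusted p of 0.0532 without control replicate 3, 0.0551 without control replicate 4 and 0.0531 without IMQ + NS replicate 4 by limma, and Pmel 0.0516 and 0.0515 without control replicate 4 and IMQ + NS replicate 4. Kit, with 0.93 (SE 0.22, adjusted p = 0.00690 by limma), and Mitf, with 0.50 (SE 0.16, adjusted p = 0.0241 by limma), passed the adjusted p but were under the limit of 1. Counting them, 9 of the 10 genes were higher with no limit on the fold change, against 29.0% of all genes tested. Mlana had a log2 fold change of 0.42 (SE 0.33, 95% interval -0.34 to 1.17), and its adjusted p was 0.308 by limma.

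By the exact permutation test over samples, the smallest p that 4 samples against 4 allow, two-sided, is 0.0286. Oca2, Mitf and Kit reached it, because all 4 controls lay below all 4 IMQ + NS samples. That was 3 of 10 genes, beside 23.7% of all tested genes without overlap in this direction. Tyr, Slc45a2 and Mc1r had an exact p of 0.0571, and Tyrp1, Dct and Pmel of 0.0857. In these 6 genes control replicate 2 alone lay within the range of the IMQ + NS samples. Mlana had an exact permutation p of 0.4.

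Leaving out control replicate 2, a sample set apart for its high values in these same genes, favours larger rises and less overlap. The p-values and counts of this paragraph are therefore no separate support. Without control replicate 2 the rises were larger and their errors smaller. Dct was then higher by a log2 fold change of 3.41 with an SE of 0.26, in place of 2.56 with an SE of 0.74, and Oca2 by 5.54 with an SE of 0.35. Tyr was higher by 4.77, Slc45a2 by 4.66, Tyrp1 by 4.49, Mc1r by 3.89 and Pmel by 3.85 on the log2 scale. Kit crossed the limit at 1.15 (adjusted p = 8.39e-05 by limma), so that 8 of the 10 genes rose, against 14.4% of all tested genes. No overlap with the IMQ + NS samples was left in 9 genes, against 39.9% of all tested genes. Mlana was the exception, at 0.48 with an adjusted p of 0.274 by limma and an exact permutation p of 0.4.

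**Figure D2:**
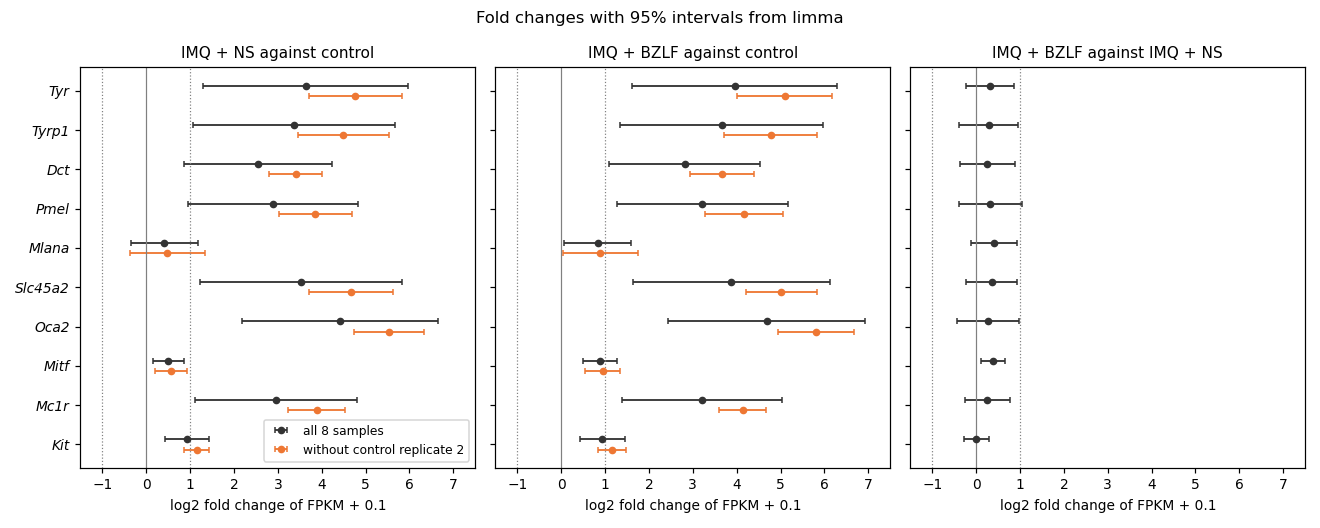
Log2 fold change of FPKM + 0.1 with its 95% interval from limma for each pigment gene in the 3 comparisons, with all 8 samples (dark) and, where the control group takes part, without control replicate 2 (orange). The dotted lines mark a log2 fold change of 1 in either direction, and the intervals of IMQ + BZLF against IMQ + NS lie around small positive values.

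The treated lesions were also set against normal skin, a comparison that shares its control samples with the one above. Tyr, Tyrp1, Dct, Pmel, Slc45a2, Oca2 and Mc1r rose, 7 of 10 genes against 9.65% of all tested genes, and 0 of 10 fell, against 10.1%. Oca2 was higher by 4.68, Tyr by 3.96, Slc45a2 by 3.88, Tyrp1 by 3.66, Pmel by 3.22, Mc1r by 3.21 and Dct by 2.82 on the log2 scale, with adjusted p-values from 0.00439 for Oca2 to 0.0154 for Tyrp1 by limma. Mitf and Kit had log2 fold changes of 0.89 and 0.94, with adjusted p-values of 0.00278 and 0.00840 by limma, which made 9 of 10 genes higher with no limit on the fold change, against 23.8% of all tested genes. Mlana had 0.83 (95% interval 0.06 to 1.59, adjusted p = 0.0660 by limma). In 5 genes, Tyr, Pmel, Slc45a2, Oca2 and Mitf, the IMQ + BZLF samples lay above all 4 controls, against 19.4% of all tested genes. Without control replicate 2, which was set apart on these same values, Kit was called as well, at 1.16. That made 8 genes against 12.7% of all tested genes. There was then no overlap in 9 genes, against 35.9% of all tested genes, and Mlana was again the exception with an exact permutation p of 0.0571.

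The question of whether the formula changed the pigment genes in lesions was addressed by the IMQ + BZLF group against the IMQ + NS group. None of the 10 genes was called in either direction by limma, with or without the limit on the fold change. Over all tested genes 0.321% were called higher and 2.20% lower with the limit, and 1.28% and 5.17% without it. The log2 fold changes of all 10 genes were above 0, from 0.0061 for Kit to 0.41 for Mlana, but the samples of the groups overlapped in 9 genes. The 95% intervals ran from -0.23 to 0.87 for Tyr, -0.39 to 0.96 for Tyrp1, -0.37 to 0.89 for Dct, -0.40 to 1.04 for Pmel and -0.11 to 0.93 for Mlana. They ran from -0.23 to 0.93 for Slc45a2, -0.44 to 0.98 for Oca2, -0.26 to 0.77 for Mc1r and -0.28 to 0.30 for Kit. Both a small fall and a rise of nearly 1 on the log2 scale are thus within the error for most of these genes, and for Kit the error is narrower.

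Mitf was the one gene of the 10 in which the lesion groups did not overlap. Every IMQ + BZLF sample, 5.30 to 7.42 FPKM, was above every IMQ + NS sample, 4.02 to 5.10 FPKM. The log2 fold change was 0.39 (SE 0.12, 95% interval 0.11 to 0.66). The exact permutation p of 0.0286 is the smallest this design allows, and 4.24% of all tested genes had no overlap in this direction. The unadjusted p was 0.0110 and the adjusted p 0.0984 by limma, so Mitf was not called. IMQ + BZLF replicate 1 had the highest value of the 8 lesion samples in all 10 genes. Without it the log2 fold changes of Dct, Oca2 and Kit turned to -0.017, -0.026 and -0.082. IMQ + NS replicate 3 had the lowest lesion value in 8 of the 10 genes. Summed over the 10 genes, the lesion samples ranged from 220.0 to 419 FPKM in the IMQ + NS group and from 299 to 609 FPKM in the IMQ + BZLF group.

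Control replicate 2 was above all 3 other controls in 9 of the 10 genes, and Mlana was the exception. Over all tested genes it was the highest control in 50.6%. Its log2 difference from the mean of the other controls was above 1 in 7 of the 10 genes, against 8.46% of all tested genes. On the FPKM scale it exceeded the mean of the other controls 62.6-fold for Oca2, 33.5-fold for Slc45a2, 26.1-fold for Tyr, 19.5-fold for Tyrp1, 17.5-fold for Mc1r, 13.3-fold for Pmel and 10.2-fold for Dct. The same ratio was 1.87 for Kit, 1.16 for Mitf and 1.10 for Mlana. The genes with the large ratios were the 7 that rose in both lesion groups.

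Set against the lesions, control replicate 2 was within their range in 8 of the 10 genes and below all of them in Oca2 and Mitf. How often either held over all tested genes was not counted, so whether these counts are particular to the pigment genes is unknown. The value of control replicate 2 came to between 46.2% of the lesion median for Oca2 and 97.3% for Dct, with a median of 81.0% over the 10 genes. The other 3 controls were below all 8 lesions in 9 of the 10 genes, against 33.2% of all tested genes. Their sums over the 10 genes were 49.0 to 69.9 FPKM, and the sum of control replicate 2 was 275 FPKM.

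Hair follicle genes moved with the pigment genes across these samples, but in control replicate 2 most of them were at a smaller share of the lesion level. The list held 22 genes of the hair shaft, the inner root sheath and their regulators. In the IMQ + NS group against the control group 21 of them rose, or 22 without control replicate 2. Over all tested genes 11.4% were called higher, or 14.4% without control replicate 2. Their summed level was 35.5 to 96.7 FPKM in the other controls, 2354 FPKM in control replicate 2, 14820 to 19903 FPKM in the IMQ + NS group and 18892 to 27664 FPKM in the IMQ + BZLF group. Control replicate 2 exceeded the other controls in all 22 genes, against 50.6% of all tested genes. It was below every lesion sample in 21, a share that was not counted over all tested genes. The median level of control replicate 2 in the list was 11.9% of the lesion median, in place of the 81.0% of the pigment genes. Krt34, a keratin of the hair shaft, read 5.59 FPKM in control replicate 2 and 742 to 1573 FPKM in the lesions. Krt35, a keratin of the early shaft, read 149 FPKM against 268 to 568 FPKM. Shh, the hedgehog ligand of the growing bulb, was the exception, at 13.1 FPKM against 3.65 to 6.39 FPKM in the lesions. Between the lesion groups 0 of the 22 genes were called, with a median log2 fold change of 0.33. Over all tested genes 0.321% were called higher and 2.20% lower there. The part of hair growth in the levels of the pigment genes was not tested.

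**Figure D3:**
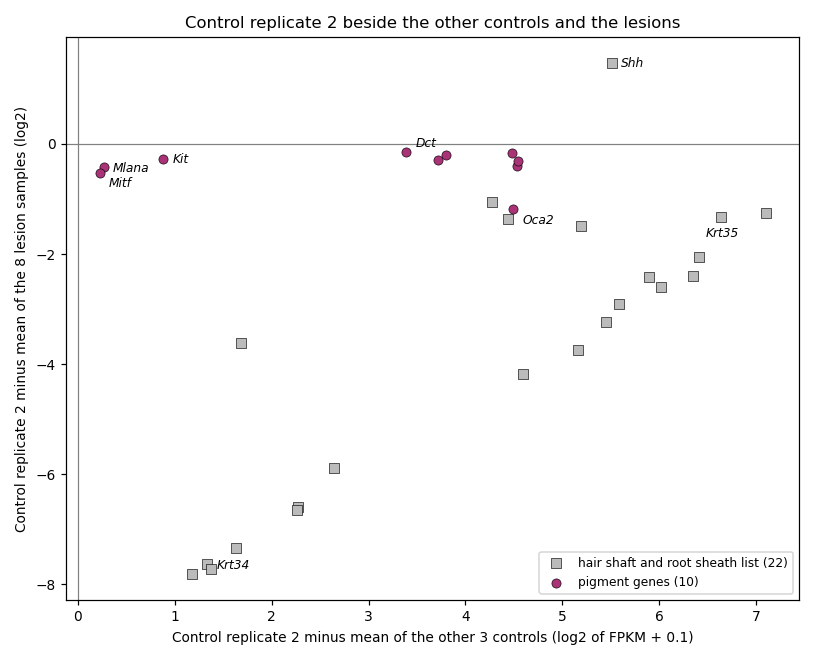
Each point is a gene, with the difference of control replicate 2 from the mean of the other 3 controls on the horizontal axis and from the mean of the 8 lesion samples on the vertical axis, both on the log2 scale of FPKM + 0.1. Of the 10 pigment genes (circles) Oca2 lies lowest on the vertical axis, at -1.18, below the hair gene Hoxc13 at -1.05, while most of the 22 hair genes (squares) lie further below the lesion level and Shh lies above it.

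In control replicates 1, 3 and 4 the ratio of every other pigment gene to Dct lay outside the range of the other 9 samples. It was above that range for Mlana, Kit and Mitf and below it for the rest. Tyrp1 came to between 0.484 and 0.575 of Dct in the 8 lesion samples and to 0.544 of it in control replicate 2. In control replicates 1, 3 and 4 it was 0.387, 0.188 and 0.208 of Dct. The ratio of Mlana to Dct was 0.378 to 0.628 in the lesions and 0.373 in control replicate 2, but 1.18, 5.44 and 5.47 in control replicates 1, 3 and 4. Other ratios to Dct varied more among the lesions, from 0.0311 to 0.0678 for Mc1r, 0.0335 to 0.0776 for Kit and 0.0391 to 0.0789 for Slc45a2. In control replicates 1, 3 and 4 the ratio was 0.0253, 0.0241 and 0.0209 for Mc1r and 0.217, 0.358 and 0.275 for Kit. For Slc45a2 it was 0.0213, 0.0175 and 0.00379 in these controls. Of the summed FPKM of the 7 enzyme and melanosome genes, Mlana thus made up 79.1% and 78.3% in control replicates 3 and 4, 39.8% in control replicate 1, and 15.3% to 22.2% in the other 9 samples. Control replicate 1 was the highest of the remaining 3 controls in 8 of the 10 genes, and the lowest control in Mlana and Mitf.

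Other genes of the pathway were taken from 3 lists. The melanosome list held 27 genes of melanosome formation, ion balance and transport, of which 10 rose and 0 fell in the IMQ + NS group against the control group, with a median log2 fold change of 0.44. Over all tested genes 11.4% were called higher and 11.0% lower, with a median of 0.0535. The same 10 rose in the IMQ + BZLF group against the control group. Slc7a11, the cystine transporter used in red pigment synthesis, rose by 5.04 (adjusted p = 3.07e-06 by limma), from 0.0590, 0.209, 0.0794 and 0.0607 FPKM in the controls to 4.89 to 9.44 FPKM in the IMQ + NS group. It was thus far below every lesion sample in control replicate 2 as well. Slc24a5, a melanosomal exchanger, rose by 4.06, Trpm1, a channel of melanocytes, by 3.56 and Gpr143, a melanosomal receptor, by 3.13, with adjusted p-values of 0.0118, 0.0133 and 0.0110 by limma. In control replicate 2 they read 10.4, 6.25 and 1.69 FPKM, against at most 0.616, 0.311 and 0.0926 FPKM in the other controls. Gpr143 was listed at 0 in control replicate 4. The other genes that rose, Sytl2, Mreg, Atp7a, Mlph, Myo5a and Lyst, had log2 fold changes from 1.04 for Lyst to 2.29 for Sytl2. Myo5a, Mlph and Mreg take part in moving melanosomes, and they were present at 1 FPKM or more in every control.

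In the list of 12 transcriptional regulators, Lef1, Tfap2a and Tfap2b rose and Irf4 fell in both lesion groups against the control group, 3 and 1 of 12 genes, beside the 11.4% and 11.0% of all tested genes in the IMQ + NS comparison. Lef1, a partner of beta-catenin, rose by 3.23 in the IMQ + NS group (adjusted p = 0.00829 by limma), Tfap2a by 1.84 and Tfap2b by 1.44. Irf4, which is known to act with MITF on Tyr and is also strong in immune cells, fell by 1.57 (adjusted p = 0.000814 by limma). Sox10, which is needed for Mitf in melanocytes and is also made in Schwann cells, read 3.92, 5.59, 3.82 and 3.19 FPKM in the controls, 3.61, 3.56, 2.55 and 3.93 FPKM in the IMQ + NS group and 5.01, 2.96, 3.24 and 4.16 FPKM in the IMQ + BZLF group. For untreated lesions against normal skin Sox10 had a log2 fold change of -0.26 (95% interval -0.70 to 0.19, adjusted p = 0.288 by limma), and the groups overlapped. The 9 Schwann cell genes summed to 197 to 262 FPKM in the controls, 77.2 to 92.7 FPKM in the IMQ + NS group and 78.7 to 124 FPKM in the IMQ + BZLF group, and 5 of them fell in the IMQ + NS group. Their part in the level of Sox10 was not tested.

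The list of 13 signals and receptors held the ligands of Kit and Mc1r, and 2 of the 13 genes rose and 0 fell in the IMQ + NS group, beside the same 11.4% and 11.0%. Kitl, the ligand of Kit, had a log2 fold change of 0.30 in the IMQ + NS group (adjusted p = 0.227 by limma), and of 0.50 without control replicate 2 (adjusted p = 0.00663 by limma). Pomc, the precursor of the Mc1r agonist, and Asip, its antagonist, listed under the symbol a, were both below 0.5 FPKM in all 12 samples, with log2 fold changes of -0.59 and 0.34 and adjusted p-values of 0.217 and 0.309 by limma. Edn3, an endothelin that acts on melanoblasts, read 0.263 to 3.47 FPKM with its highest value in control replicate 2, and was not called (log2 fold change -0.58, adjusted p = 0.399 by limma). Corin, a protease of the dermal papilla that acts on the agouti pathway, rose by 2.64 (adjusted p = 0.0294 by limma) and Erbb3, a neuregulin receptor, by 1.17 (adjusted p = 0.000400 by limma). Corin was again high in control replicate 2, at 3.25 FPKM, against 0.0547 to 0.222 FPKM in the other controls and 1.95 to 3.47 FPKM in the lesions.

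Ednrb, the endothelin receptor of melanoblasts, which other skin cells also carry, had an intermediate level in the IMQ + NS group. It read 15.1, 26.8, 20.4 and 11.9 FPKM in the controls, 29.9, 28.2, 32.6 and 34.0 FPKM in the IMQ + NS group and 47.0, 42.1, 38.7 and 40.5 FPKM in the IMQ + BZLF group, so that the 3 groups did not overlap. Against the control group it was higher by 0.81 in the IMQ + NS group (adjusted p = 0.0140 by limma), under the limit of 1, and rose by 1.24 in the IMQ + BZLF group (adjusted p = 0.00204 by limma). Between the lesion groups the log2 fold change was 0.43 (95% interval 0.25 to 0.61, adjusted p = 0.0150 by limma), past the adjusted p but under the limit on the fold change. With no limit 1.28% of all tested genes were called higher in this comparison. Of the 52 genes in the 3 lists, Rab32, a melanosomal and endosomal GTPase, was the other one with an adjusted p under 0.05 between the lesion groups, at -0.49 (adjusted p = 0.0199 by limma). With the limit, 0 of the 52 genes were called between the lesion groups.

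**Figure D4:**
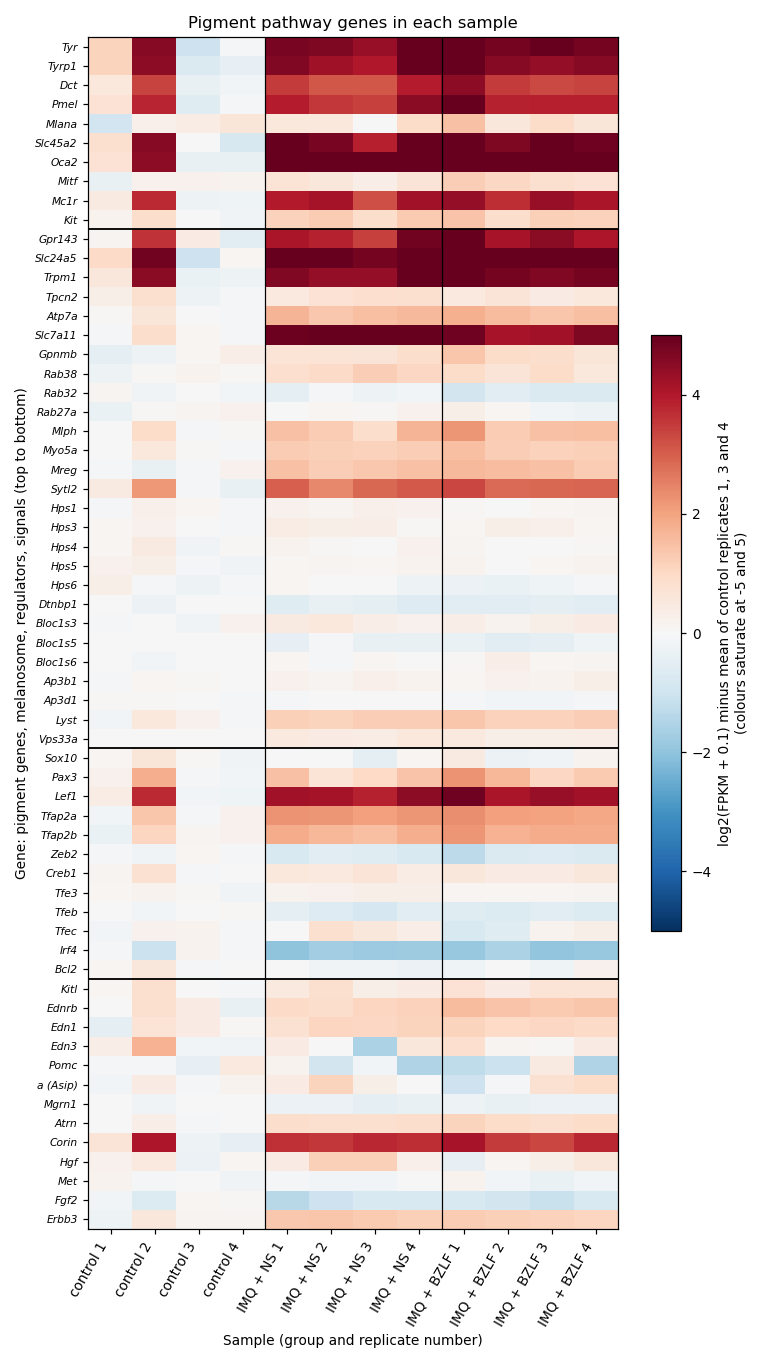
Log2(FPKM + 0.1) of the 10 pigment genes and of the melanosome, regulator and signal lists in each sample, as the difference from the mean of control replicates 1, 3 and 4, with colours saturated at 5 in either direction. Control replicate 2 has the colours of the lesions in Tyr, Tyrp1, Dct, Pmel, Slc45a2, Mc1r, Slc24a5, Trpm1, Lef1 and Corin, but not in Slc7a11.

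Kit is also the receptor by which mast cells live, and Mitf is active in them, so 16 mast cell genes were examined, of which 15 had a row. In the IMQ + NS group against the control group 3 of these rose and 3 fell, against 11.4% called higher and 11.0% lower over all tested genes. The proteases Cpa3 and Cma1, which are stored in mast cell granules, fell by 1.06 and 1.01, and the receptor Mrgprb2 fell by 1.46. Fcer1a, the IgE receptor chain, Hdc and Rab27b rose. Summed over the list, the level was 279.6 to 353 FPKM in control replicates 1, 3 and 4, 207 FPKM in control replicate 2, 151 to 212 FPKM in the IMQ + NS group and 106 to 201 FPKM in the IMQ + BZLF group. The protease Mcpt4 alone read 136, 111 and 111 FPKM in control replicates 1, 3 and 4, so the sum leans on few genes. Of the 15 genes, 4 had a log2 fold change above 0 in the IMQ + NS group, and the median was -0.35. No gene of the list was at 0 in any sample. The part of mast cells in the levels of Kit and Mitf was not tested.

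Markers of other skin components also differed between the groups, and their part in the results was not tested. In the IMQ + NS group against the control group, 5 of 5 skeletal muscle genes, 5 of 6 fibroblast genes and 3 of 5 adipocyte genes fell. In the same comparison 4 of 6 keratinocyte genes rose and 1 of 10 macrophage genes fell. Over all tested genes 11.4% were called higher and 11.0% lower, so the macrophage count was near that share. Between the lesion groups 1 of 6 keratinocyte genes and 1 of 10 macrophage genes fell, and 0 of the muscle, fibroblast and adipocyte genes were called. Over all tested genes 0.321% were called higher and 2.20% lower in this comparison. In control replicate 2 the muscle genes summed to 3212 FPKM, against 7392 to 8017 FPKM in the other controls and 609 to 1435 FPKM in the lesions.

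Genes with a profile like that of the pigment genes were ranked by the root mean square difference, in SD units, between standardised log2(FPKM + 0.1) profiles over the 12 samples and the mean profile of Tyr, Tyrp1, Dct, Pmel, Mlana, Slc45a2 and Oca2. Of 12647 genes with a mean of at least 1 FPKM outside the 10, the nearest were Slc24a4 at 0.104, Trpm1 at 0.106, Ptgds at 0.115, Zfp703 at 0.129, Bace2 at 0.129, Anp32e at 0.130, Nup210 at 0.131, Med14 at 0.131, Kazn at 0.132 and Lef1 at 0.133. The median over all these genes was 1.18. Among the 10 pigment genes the difference was 0.114 for Dct, 0.122 for Pmel, 0.143 for Oca2, 0.171 for Mc1r, 0.172 for Tyrp1, 0.176 for Tyr, 0.194 for Slc45a2 and 0.221 for Kit. It was 0.591 for Mitf and 0.841 for Mlana, although Mlana entered the mean profile itself. Tyr, Tyrp1, Dct, Pmel, Slc45a2 and Oca2 also entered it, so their small differences are partly built in. Mc1r, Kit and Mitf did not enter it. The likeness lies in the shape of the profile and not in the size of the change. Slc24a4, an ion exchanger, had a log2 fold change of 3.78 in the IMQ + NS group and Ptgds, prostaglandin D2 synthase, of 2.96, while Zfp703 had 0.58 and Med14 0.63. Of the 10 nearest genes 8 had a promoter window, and CATGTG was found in 1 of them, Trpm1, near the 13.8% of all genes with a window.

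**Figure D5:**
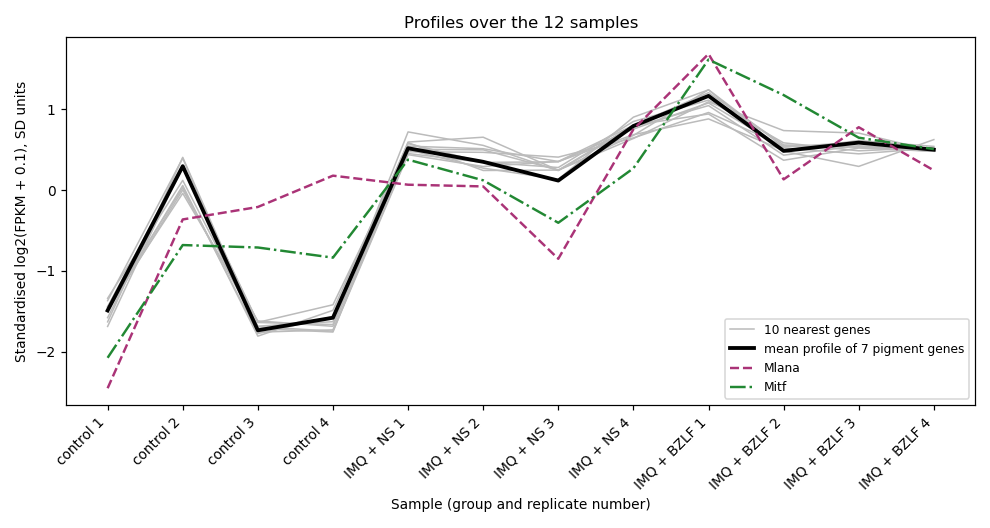
Standardised log2(FPKM + 0.1) over the 12 samples for the mean profile of 7 pigment genes (black), the 10 nearest genes (grey), Mlana (dashed) and Mitf (dash-dotted), in SD units; the lines join samples that have no order within a group. The grey genes were chosen as the nearest to the black line in these same samples, so that they follow it is no separate result. Mlana and Mitf, which were not chosen that way, depart from the black line in the control samples.

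The rows of Dct, Pmel, Oca2, Mitf and Mc1r carry a limit of annotation. In GENCODE M21 (GRCm38) the Dct locus (chromosome 14, 118012790 to 118052244, minus strand) overlaps an antisense gene, the Pmel locus (chromosome 10, 128704195 to 128720238, plus strand) overlaps Cdk2 and Dgka on the other strand, and the Oca2 locus (chromosome 7, 56239760 to 56536518, plus strand) overlaps an antisense gene. The Mitf locus (chromosome 6, 97807052 to 98021349, plus strand) holds a processed pseudogene on the other strand, and the Mc1r locus (chromosome 8, 123407107 to 123410744, plus strand) overlaps Gm20388 on the same strand and Gm38092 on the other. Whether the counting used strand is not certain from the sources used here, and reads of overlapping genes may be shared. The loci of Tyr (chromosome 7, 87424771 to 87493512, minus strand), Tyrp1 (chromosome 4, 80834123 to 80851719, plus strand), Mlana (chromosome 19, 29697824 to 29708634, plus strand), Slc45a2 (chromosome 15, 11000721 to 11029233, plus strand) and Kit (chromosome 5, 75574916 to 75656722, plus strand) overlap no other annotated gene.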

How the data were processed

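RNA-seq of 12 bulk back skin samples, 4 per group, was used as 1 table of deposited FPKM values per gene and sample, made by the authors and not pooled over replicates. The methods of the study name mirVana extraction, a TruSeq Stranded library with Ribo-Zero, Bowtie2 and eXpress. The labels name TRIzol and a VAHTS library kit, and the submitters' processing notes list fastp, HISAT2, HTSeq, R 3.2.0 and the build mm10. These sources differ, so the counter and its use of strand are uncertain. Group and replicate number came from the sample titles. Genes with a mean of at least 0.1 FPKM (15288 of 18505) were tested in R 4.3.3 on log2(FPKM + 0.1) with limma 3.58.1, variances moderated with a trend, for each pair of groups apart. P-values were adjusted by Benjamini-Hochberg over all tested genes, and a DEG required an adjusted p under 0.05 and a log2 fold change above 1 in size. The scripts were tested on simulated data. For the pigment genes an exact permutation test, two-sided, was run besides on the 8 samples of each comparison. Tables, profiles and plots used Python 3.11.15, pandas 2.3.3, numpy 2.4.6 and matplotlib 3.10.9. Promoter windows were taken from RefSeq and loci from GENCODE M21. The text names the 10 pigment genes, genes of 3 pathway lists that were called, 8 pathway genes set by name (Sox10, Kitl, Ednrb, Edn3, Gpr143, Slc24a5, Asip and Pomc) and the 10 nearest profiles. Rab32, the granule genes and the hair keratins given as examples, and further cell type markers, were chosen after their values were seen. The genes, lists and tests were chosen with earlier results of these data known. Alternatives covered the added constant, the filter, the scaling, the variance model, the threshold, the replicate number as a block and each sample left out.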

Additional observations from a re-analysis of the deposited data

Results flagged for a closer look

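In 12 of the 30 combinations of a pigment gene and a group, 1 sample lay far from the other 3 by Dixon's criterion at the 95% level, which chance alone meets in about 1 in 20 groups. Control replicate 2 was the high sample in 7 of these, with 7.15 FPKM for Tyr, 58.3 for Tyrp1, 107 for Dct, 40.4 for Pmel, 5.38 for Slc45a2, 3.02 for Oca2 and 4.37 for Mc1r. IMQ + BZLF replicate 1 was the high sample in 4, with 128 FPKM for Tyrp1, 229.7 for Dct, 96.4 for Pmel and 14.1 for Oca2. Control replicate 1 was the low sample in 1, with 2.40 FPKM for Mitf. The genes of a sample share its library, so these are not separate events. Control replicate 2 had been set apart on these same values, so its flags restate that choice.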

How the results depend on the processing

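Under 21 alternatives per comparison, the number of pigment genes called higher was 5 to 9 for untreated lesions against controls, 7 to 9 for treated lesions against controls and 0 between the lesion groups, and 0 were called lower throughout. Leaving out 1 sample at a time gave 5 to 8, 7 to 8 and 0. Without control replicate 4 or IMQ + NS replicate 4, Tyrp1 and Pmel missed the adjusted p, and Tyrp1 did so without control replicate 3. Kit crossed the fold limit without control replicate 2 or IMQ + NS replicate 3 in IMQ + NS against control samples. In IMQ + BZLF against control samples Kit crossed it without control replicate 2 or IMQ + BZLF replicate 2. Mlana crossed it there without control replicate 4 (adjusted p = 0.0495 by limma). Between the lesion groups, values near 0 changed sign in 5 cases: Kit (-0.079 when IMQ + NS replicate 3 was left out, -0.082 and -0.0030 when IMQ + BZLF replicates 1 and 3 were, range -0.082 to 0.099), Dct (-0.017 without IMQ + BZLF replicate 1, range -0.017 to 0.43) and Oca2 (-0.026 without that sample, range -0.026 to 0.45). The cause was not tested. Rescaling to equal sums moved the median log2 fold change of all genes in IMQ + BZLF against control samples from -0.0182 to -0.115, and turned 1740 higher and 1678 lower calls in IMQ + NS against control samples into 1463 and 2017. It changed no direction of a pigment gene. Replicate numbers are shared between groups, but the correlation of deviations was over 0.1 in only 6 of 12 same-numbered pairs (r from -0.152 to 0.26), so the numbers were not taken as pairing the samples. These 6 were all pairs of numbers 3 and 4 and none of numbers 1 and 2, and 6 of 36 pairs of different numbers were also over 0.1. Whether numbers 3 and 4 mark something shared was not tested. With the replicate block, 7 pigment genes were called higher in each comparison with the control group and 0 between the lesion groups, and the adjusted p of Mitf in IMQ + NS against control samples was 0.0598. Depth is unknown, and values such as 0.00775 FPKM for Oca2 may rest on very few reads.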
